A study of Rattus norvegicus with 14 samples.

Results

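The genes described here are splicing factors and spliceosome proteins of the rat perirhinal cortex. They were chosen by gene name, as every gene whose symbol begins with Srsf, Hnrnp, Snrp, Sf3a, Sf3b, U2af, Prpf, Rbfox, Celf, Mbnl, Nova, Ptbp or Lsm, together with Sart1, Sart3, Tra2a and Tra2b, which were named singly. The names were chosen with earlier results of these data known, those of Sart1 among them. This gave 103 identifiers with 102 symbols, and all 103 were present in each of the 3 tables, 1 for each pair of groups. These cover 17257 genes for the group shown new objects over Control (written new-object/Control), 17521 for Familiar over Control (Familiar/Control) and 17461 for Familiar over the group shown new objects (Familiar/new-object). Hnrnpa3 was the only symbol with more than 1 identifier.

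All rats were male Lister Hooded animals on food restriction, and RNA came from punches of the caudal perirhinal cortex, a region needed for recognising objects. Rats of group Familiar (5 rats) met 1 unchanging set of objects throughout training in the bow-tie maze and again in the test session. Rats of the group shown new objects (5 rats, called the new-object group here) were trained on changing objects and met the test objects for the first time, whereas Control rats (4 rats) were handled and kept in the holding cage but never trained or tested. Trained rats were caged in pairs, a rat of group Familiar with a rat of the new-object group, and the tables do not show which rats were caged together. Tissue was frozen 1 h after this session, ribosomal RNA was removed from the total RNA, and the libraries sequenced came from rats chosen by the quality of their RNA and, in the trained groups, by their object discrimination in that session.

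Introns are removed by the spliceosome, which is built on each transcript from small nuclear RNAs and their proteins. Most Snrp and Lsm genes encode proteins of the rings around these RNAs, others encode proteins particular to 1 particle (Snrpa, Snrpc) or proteins outside such rings (Lsm14a, Lsm14b), the U2af and Sf3 genes recognise the 3′ splice site and the branch point, and the Prpf and Sart genes encode parts of the complex that enters later. The Srsf and Hnrnp families bind exons and introns and shift the choice of splice site, and the Rbfox, Nova, Ptbp, Celf and Mbnl families set many of the splice forms found in neurons.

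The values below are fold changes between a pair of groups and the unadjusted p values of the authors' edgeR tests. The tables hold them after upper quartile normalization only and after RUVSeq, a method that estimates k sources of variation apart from the groups and takes them out. The k = 4 values are used unless another setting is named, and a value given for a gene or a median over genes is a log2 fold change unless it is named as something else. Where 3 values stand without names, they follow the order new-object/Control, Familiar/Control, Familiar/new-object. The authors took k = 4 because it separated the groups best, although Familiar and the new-object group were not fully separated by it. A gene counted as a differentially expressed gene (DEG) when p was under 0.01 and the gene rose by at least 25% or its fold change was at most 0.8, and p was also adjusted here by Benjamini-Hochberg over the whole table. An error was derived for each gene as the standard error (SE) that its log2 fold change and its p imply under a normal distribution. The tables hold 0 columns of values per rat, so neither levels nor the spread between rats nor the reads behind a gene can be shown. In tissue of many cell types, fewer cells of a type and less RNA per cell cannot be told apart.

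Of the 102 symbols, 7 were DEGs in at least 1 comparison. Sart1 was higher in group Familiar than in both other groups. Hnrnpab and Snrpe fell in new-object/Control, and Hnrnpa3 and Prpf31 fell in Familiar/Control. Hnrnpd, U2af1 and Hnrnpab were higher in group Familiar than in the new-object group. The counts were 2 DEGs (1.94% of 103) for new-object/Control, 3 (2.91%) for Familiar/Control and 4 (3.88%) for Familiar/new-object. Among all genes of the tables the shares of DEGs were 2.66%, 3.72% and 2.50%. These shares of DEGs among the members lay near those of all genes, so the DEG calls are read as results on single genes. By unadjusted p under 0.05 in the edgeR tests the shares in new-object/Control lay apart, 19.4% of members beside 10.1% of all genes. After upper quartile normalization alone they were 2.91% and 3.40%. In Familiar/Control they were 11.7% and 11.9% at k = 4, and in Familiar/new-object 9.71% and 9.59%. Without Sart1, an alternative added after seeing the data, the counts were 2, 2 and 3.

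By direction, 0 members rose and 2 fell in new-object/Control, where 1.09% of all genes rose and 1.57% fell. At k = 3 this comparison had 3 DEGs (2.91%, beside 2.28% of all genes). Of these, 1, Prpf39, was higher (0.36, adjusted p = 0.334 in the edgeR test). In Familiar/Control 1 rose and 2 fell, beside 1.83% and 1.89% of all genes. All 4 DEGs of Familiar/new-object were higher in Familiar, where 1.36% of all genes were higher and 1.14% lower. With an adjusted p under 0.05 in the edgeR tests, 0 members passed in new-object/Control (0.869% of all genes), 3 in Familiar/Control (1.97%) and 1 in Familiar/new-object (0.407%). The 3 were Sart1, Srsf2 and Hnrnpa3, and the 1 was Sart1. The 0 stands beside 20 members (19.4%, beside 10.1% of all genes) with an unadjusted p under 0.05 in the same test. With an unadjusted p under 0.01 and no fold required, 8 members (7.77%) passed in new-object/Control, 7 (6.80%) in Familiar/Control and 4 (3.88%) in Familiar/new-object, beside 3.82%, 5.11% and 3.36% of all genes.

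**Figure D1:**
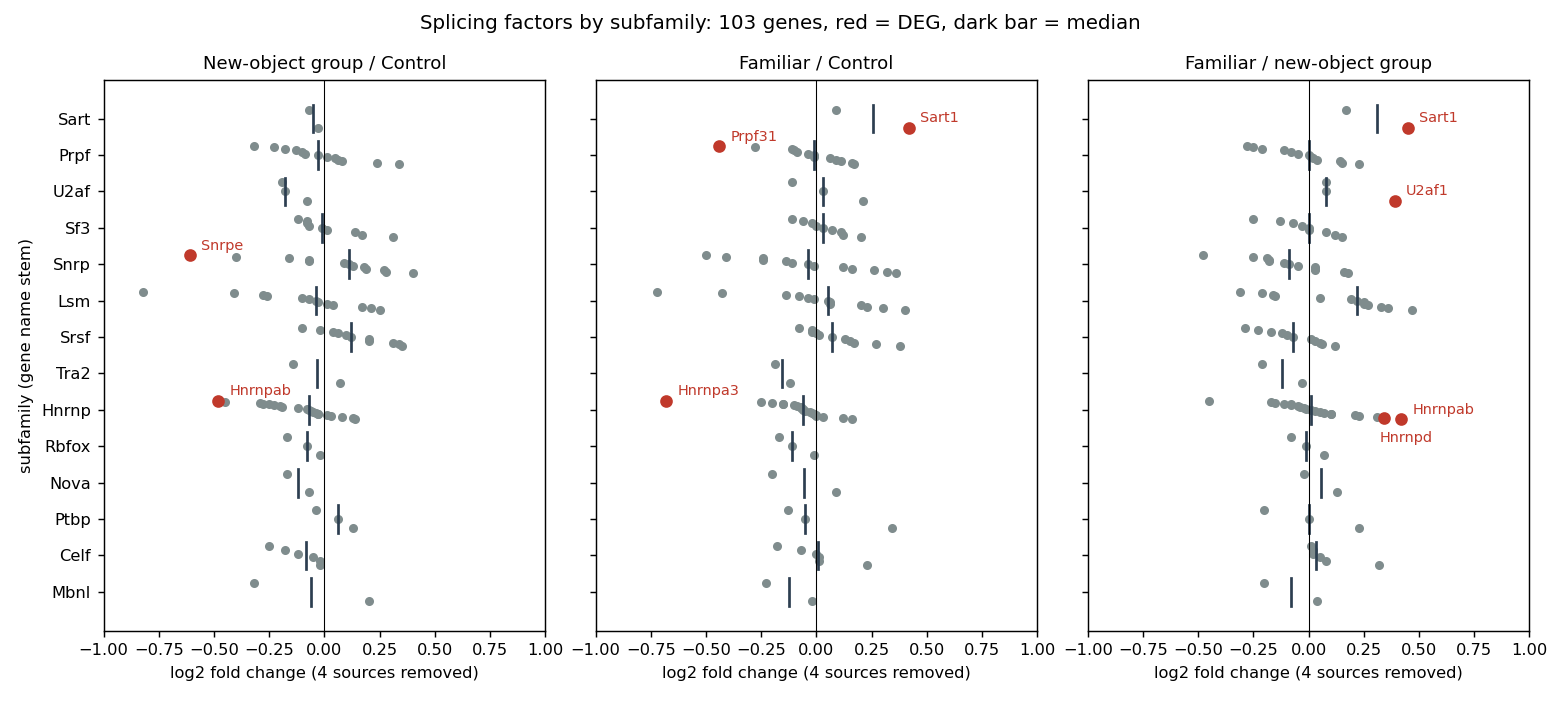
Log2 fold change of the 103 splicing factor genes at k = 4, with 1 point per gene, 1 row per subfamily and 1 panel per pair of groups. Red points are DEGs and dark bars are subfamily medians. Most points lie within 0.25 of 0, and the red points are Hnrnpab and Snrpe on the left, Sart1, Hnrnpa3 and Prpf31 in the middle and Sart1, Hnrnpd, U2af1 and Hnrnpab on the right.

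Sart1 encodes a protein of the tri-snRNP, the complex that joins the assembling spliceosome and carries the small nuclear RNAs U4, U5 and U6. In the authors' table Sart1 (ENSRNOG00000020475) was higher by 0.45 on the log2 scale in Familiar/new-object, with an unadjusted p of 1.07e-07 in the authors' edgeR test. The implied SE computed from it was 0.084, and the adjusted p computed here was 4.67e-04. Counted from the smallest, its p ranked 4 among 17461 genes. Against Control, Sart1 was higher in Familiar by 0.42, with an implied SE of 0.084 and an adjusted p of 1.82e-04. The new-object group differed from Control by -0.03, with an implied SE of 0.104 and an unadjusted p of 0.798. The 3 values therefore placed group Familiar apart from both other groups.

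The values of Sart1 moved little between settings. In Familiar/new-object the log2 fold change was 0.48 after upper quartile normalization, then 0.49, 0.46, 0.46 and 0.45 for k = 1 to k = 4. The table of this pair also holds k = 5, where it was again 0.45. In Familiar/Control it ran from 0.46 after upper quartile normalization to 0.42 at k = 4. Sart1 was a DEG at every one of these settings in both comparisons, while its implied SE fell from 0.170 and 0.173 without RUVSeq to 0.084 and 0.084. After upper quartile normalization its unadjusted p was 0.00455 in Familiar/new-object and 0.00773 in Familiar/Control, and the adjusted p was 1.00 and 0.957 in the edgeR tests. Nor was its adjusted p under 0.05 at k = 1 in either comparison, or at k = 2 in Familiar/new-object.

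The 3 tables were fitted pair by pair, and Sart1 can be followed around them. The difference between its values against Control missed the value of the third table by 0.0026 on the log2 scale, where the median gap of the 103 members was 0.0211. After upper quartile normalization the gap of Sart1 was 0.0114 and the median of the members 0.0061, so the closer match holds at k = 4 and not there. The Control rats enter both comparisons with Control, and the rats of group Familiar enter both comparisons in which Sart1 rose, so these values are not independent of each other.

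Sart3 encodes a factor that reassembles U4 with U6 after each round of splicing, and its protein is not related in sequence to that of Sart1. Sart3 had log2 fold changes of -0.07 for new-object/Control, 0.09 for Familiar/Control and 0.17 for Familiar/new-object. The last had an implied SE of 0.094 and an unadjusted p of 0.0770. No value of Sart3 passed the thresholds.

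Since Sart1 is the member on which the results turn, its promoter is shown from RefSeq. The sequence is 250 bases ahead of the annotated start in assembly GRCr8, at chr1:212128487-212128736 on the minus strand, read 5′ to 3′ along the gene. Capitals mark the letters CCGGAA on either strand, the core of the ETS motif.
Sart1: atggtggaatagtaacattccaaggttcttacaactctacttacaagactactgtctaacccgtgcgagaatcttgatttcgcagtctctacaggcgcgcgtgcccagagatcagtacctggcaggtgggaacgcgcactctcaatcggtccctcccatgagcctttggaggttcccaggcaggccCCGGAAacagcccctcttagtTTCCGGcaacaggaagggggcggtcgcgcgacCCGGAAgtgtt
The 3 matches began 64, 43 and 11 bases before the start. Promoters of 3 other members read in the same way held fewer matches, 0 for U2af1, which was also a higher DEG in Familiar/new-object, 1 for Hnrnpd and 1 for Srsf2. These 3 were picked. Matches per promoter were not counted in the remaining members, so whether 3 matches are many cannot be said. The reads had been mapped to the earlier assembly Rnor_6.0, so no position in the tables is tied to this sequence.

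Of the 102 symbols, 89 had a promoter in the RefSeq table. CCGGAA was found on either strand in 31 of the 89 (34.8%), in 13.4% of all 27457 promoters and in 22.0% of the 10846 promoters whose gene was in the table of new-object/Control. The CCAAT box (CCAAT) was in 43.8%, 34.3% and 34.6% of these in the same order, and the GC box (GGGCGG) in 59.6%, 32.4% and 57.2%. The TATA box (TATAAA) was in 6.74% of the members, 13.1% of all promoters and 6.57% of those in the table. The cyclic AMP response element (TGACGTCA) was in 4 members (4.49%), in 1.70% of all promoters and in 2.78% of those in the table. The median GC content was 58.4% in the members and 60.0% in the genes of the table. Some letters of these motifs can overlap one another, and a match describes the sequence and no binding.

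The U2af and Sf3 proteins mark the 3′ end of the intron. U2af1 (ENSRNOG00000045860), whose protein reads the AG at the 3′ splice site, was higher in Familiar than in the new-object group, with a log2 fold change of 0.39, an implied SE of 0.125 and an adjusted p of 0.132 in the edgeR test. Against Control U2af1 had 0.21 in Familiar (unadjusted p 0.0821) and -0.18 in the new-object group (unadjusted p 0.162). The 2 trained groups thus lay on opposite sides of Control, and neither was a DEG against it. U2af2, the partner that binds the pyrimidine tract, had -0.08, 0.03 and 0.08 in the 3 comparisons, in the order of new-object/Control, Familiar/Control and Familiar/new-object.

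The 9 genes of Sf3a and Sf3b, whose proteins hold the branch point within the U2 particle, gave 0 DEGs, with medians of -0.01, 0.03 and -0.00 in that order. Sf3a3 had the smallest p of them in every comparison. Its log2 fold change was 0.31 for new-object/Control (unadjusted p 0.0105), 0.20 for Familiar/Control (unadjusted p 0.105) and -0.13 for Familiar/new-object (unadjusted p 0.265). Sf3b1, the subunit that contacts the branch point, had -0.01, -0.02 and -0.00, with implied SEs of 0.061 and 0.064 for the first and the second of these.

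The 13 Prpf genes encode parts of the U5 particle, the tri-snRNP and the helper complexes. Prpf31 (ENSRNOG00000061039), a tri-snRNP protein known from inherited retinal degeneration, fell in Familiar/Control by 0.44 on the log2 scale, with an implied SE of 0.145 and an adjusted p of 0.0867 in the edgeR test. The new-object group had -0.18 against Control (unadjusted p 0.211), and Familiar had -0.28 against the new-object group (unadjusted p 0.0607). Prpf31 and Sart1 both belong to the tri-snRNP, and in group Familiar one was lower and the other higher than in Control.

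Another 4 of the 13 Prpf genes had a p under 0.05 in new-object/Control, where 10.1% of all genes did, and failed 1 or both parts of the DEG rule. They were Prpf19, a ubiquitin ligase of the spliceosome, at -0.23 (unadjusted p 0.00126), Prpf39 at 0.34 (unadjusted p 0.0108), the kinase gene Prpf4b at 0.24 (unadjusted p 0.0120) and Prpf38a at -0.32 (unadjusted p 0.0472). Prpf4b was the member of the family with the smallest p in Familiar/new-object, at -0.25 (unadjusted p 0.0119), and had -0.01 in Familiar/Control. Prpf8, the scaffold of the catalytic core, had -0.09, -0.09 and -0.00.

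Sm proteins form a ring on the small nuclear RNAs. Snrpe (ENSRNOG00000031127), which encodes 1 protein of the ring, fell in new-object/Control by 0.61, with an implied SE of 0.228 and an adjusted p of 0.228 in the edgeR test. In Familiar/Control Snrpe had -0.50 (unadjusted p 0.0444), and between the trained groups the value was 0.18 (unadjusted p 0.524). Of the other genes of the ring, Snrpd1 had -0.07 and -0.14 against Control in the new-object group and in Familiar, Snrpd2 -0.07 and -0.04, Snrpd3 -0.16 and -0.24, Snrpf 0.18 and -0.41, and Snrpg 0.09 and 0.16. None of these had a p under 0.05.

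Snrpb, another gene of the ring, had the smallest p of the 13 Snrp genes in Familiar/new-object, with -0.25 (unadjusted p 0.0266). Against Control Snrpb had 0.13 in the new-object group and -0.11 in Familiar. The medians of the 13 Snrp genes were 0.11, -0.04 and -0.09. Genes of the Sm ring, like some Hnrnp genes, have near-identical copies in mammalian genomes, and only uniquely mapped reads were counted, so values such as those of Snrpe and of Snrpd2 beside Snrpd2l are uncertain.

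Most Lsm proteins form like rings, on U6 in the nucleus, on decaying messenger RNA in the cytoplasm and, for Lsm10 and Lsm11, on the U7 RNA of histone messages. None of the 13 Lsm genes was a DEG. Lsm2, common to the nuclear and the cytoplasmic ring, had the lowest value of all members, -0.82 in new-object/Control (unadjusted p 0.0212) and -0.72 in Familiar/Control (unadjusted p 0.0154), with implied SEs of 0.354 and 0.298. In Familiar/new-object 9 of 13 Lsm genes were above 0 (52.3% of all genes), with a median of 0.22, and 0 had a p under 0.05. The smallest p there was that of Lsm7, 0.0612, at 0.33.

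The small Snrp and Lsm genes had the least precise fold changes. In new-object/Control the implied SE was 0.733 for Lsm5, 0.679 for Snrpn and 0.550 for Snrpf, while it was 0.053 for Prpf8, 0.057 for Celf5 and 0.060 for Hnrnpu. The median over the members for which one could be computed was 0.121, and over all such genes it was 0.182. The values of -0.41 for Lsm5 and 0.19 for Snrpn lay within these errors.

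The Srsf genes encode serine and arginine rich proteins that bind exon enhancers. Srsf2 was higher in Familiar than in Control by 0.27, with an implied SE of 0.078 and an adjusted p of 0.0319 in the edgeR test. At a fold change of 1.21 it passed the adjusted p and missed the fold required of a DEG. In new-object/Control Srsf2 had 0.20 (unadjusted p 0.0182), and between the trained groups 0.06 (unadjusted p 0.493). In new-object/Control 9 of 11 Srsf genes were above 0, with a median of 0.12, beside 48.3% of all genes above 0. In that comparison 3 Srsf genes had a p under 0.05, beside 10.1% of all genes, namely Srsf7 at 0.35 (unadjusted p 0.0172), Srsf2 and Srsf12 at 0.34 (unadjusted p 0.0497). In Familiar/new-object the smallest p was that of Srsf12, 0.0754, at -0.29.

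Tra2a and Tra2b encode related activators of exon inclusion. Tra2a had 0.07, -0.12 and -0.21 and Tra2b -0.14, -0.19 and -0.03 in the 3 comparisons. Their smallest p values were 0.0826 for Tra2a in Familiar/new-object and 0.0881 for Tra2b in Familiar/Control, so neither gene passed.

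The Hnrnp family, with 21 identifiers the largest here, held 3 of the 7 DEG symbols. Its proteins coat new transcripts, often as silencers of splicing, and several go on to carry or stabilise messenger RNA in the cytoplasm. Hnrnpab (ENSRNOG00000003645), whose protein binds messenger RNA that is moved along neuronal processes, fell in new-object/Control by 0.48, with an implied SE of 0.147 and an adjusted p of 0.0898 in the edgeR test. In Familiar/new-object Hnrnpab was higher by 0.42, with an implied SE of 0.144 and an adjusted p of 0.192. Familiar and Control differed by -0.09 (unadjusted p 0.512). Hnrnpab was thus low in the new-object group beside both other groups, as Sart1 was high in Familiar beside both others.

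Hnrnpd (ENSRNOG00000002292) encodes AUF1, which binds AU-rich elements and turns over messages that carry them. It was higher in Familiar than in the new-object group by 0.34, with an implied SE of 0.104 and an adjusted p of 0.111 in the edgeR test. Against Control Hnrnpd had 0.12 in Familiar (unadjusted p 0.184) and -0.19 in the new-object group (unadjusted p 0.111). As with U2af1, the trained groups lay on opposite sides of Control and neither passed against it. Its close relative Hnrnpdl had -0.03, -0.05 and -0.02.

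Hnrnpa3 has 2 identifiers, and they did not give the same values. The first (ENSRNOG00000027006) fell in Familiar/Control by 0.68, with an implied SE of 0.204 and an adjusted p of 0.0441 in the edgeR test. It had -0.25 in new-object/Control (unadjusted p 0.200) and -0.45 in Familiar/new-object (unadjusted p 0.0290). The second (ENSRNOG00000052968) had -0.45, -0.10 and 0.31 in the order of new-object/Control, Familiar/Control and Familiar/new-object, with p values of 0.123, 0.699 and 0.307. How reads were shared between the identifiers cannot be seen in the tables, and the call of Hnrnpa3 holds for 1 identifier.

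Most other Hnrnp genes had small negative values against Control. In the new-object group 16 of 21 identifiers were below 0, with a median of -0.07, and in Familiar 17 of 21 were, with a median of -0.06. The medians of all genes were -0.01 and 0.00, and 48.3% and 50.1% of all genes were above 0. Hnrnpc, which binds uridine tracts and keeps cryptic exons out, had -0.28 (unadjusted p 0.00550) and -0.25 (unadjusted p 0.00981). It passed p under 0.01 in both comparisons with Control and missed the fold. Hnrnpu, a nuclear scaffold protein gene, had values in the other direction, 0.14 (unadjusted p 0.0190) and 0.16 (unadjusted p 0.00431), and its implied SEs of 0.060 and 0.057 lay at percentiles 2.6 and 2.4 of the genes in the tables. Hnrnpll had -0.29 in new-object/Control (unadjusted p 0.00961).

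**Figure D2:**
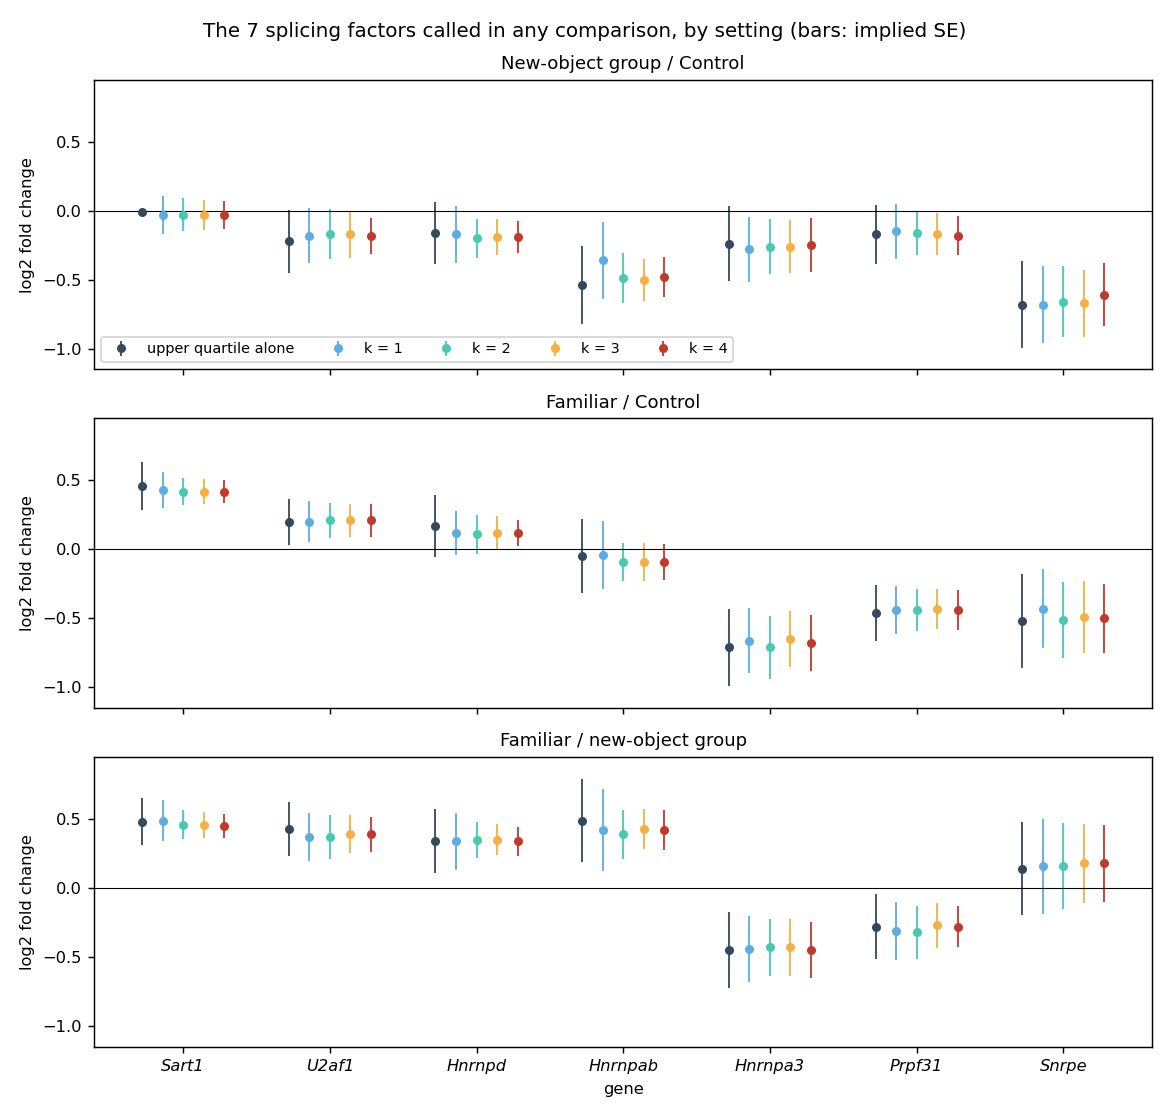
Log2 fold change of the 7 splicing factor genes that were DEGs in any comparison, by pair of groups (panels) and by setting from upper quartile normalization alone to k = 4 (colours), with bars for the implied SE, drawn where p was under 0.9. For Hnrnpa3 the identifier that was a DEG is drawn. From upper quartile normalization to k = 4 the bars of called values shorten, as for Sart1 in Familiar/new-object, from 0.48 with an SE of 0.170 to 0.45 with 0.084. Hnrnpab in new-object/Control moves from -0.54 to -0.36 at k = 1 and -0.48 at k = 4.

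The calls differed in the setting at which they first appeared. Hnrnpa3 was a DEG in Familiar/Control from k = 1 on, and Prpf31 from k = 2 on. Hnrnpab in new-object/Control and Hnrnpd in Familiar/new-object were DEGs from k = 2 on. Snrpe in new-object/Control and both U2af1 and Hnrnpab in Familiar/new-object were DEGs from k = 3 on. Before RUVSeq, the unadjusted p of these genes in the same comparisons ran from 0.0123 for Hnrnpa3 to 0.142 for Hnrnpd, and each log2 fold change had the sign it has at k = 4.

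Among the factors that set splice forms in neurons, no gene was a DEG in any comparison. Rbfox1, a neuronal factor that binds GCATG, had -0.08 in new-object/Control, -0.17 in Familiar/Control (unadjusted p 0.00828, adjusted p = 0.182 in the edgeR test) and -0.08 in Familiar/new-object. Rbfox3, the gene of the neuronal antigen NeuN, had -0.17 in new-object/Control (unadjusted p 0.0667), -0.11 in Familiar/Control and 0.07 in Familiar/new-object. Rbfox2 had -0.02, -0.01 and -0.01, with implied SEs of 0.084, 0.085 and 0.096.

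The muscleblind genes had values of opposite sign in the new-object group. They encode proteins that are trapped by repeat RNA in myotonic dystrophy. Against Control Mbnl1 had -0.32 (unadjusted p 0.00462, adjusted p = 0.187 in the edgeR test) and Mbnl2 0.20 (unadjusted p 0.00366, adjusted p = 0.167), and both missed the fold. The fold change of Mbnl1 was 0.804, just short of 0.8. In Familiar/Control Mbnl1 had -0.23 (unadjusted p 0.0310) and Mbnl2 -0.02 (unadjusted p 0.711). In Familiar/new-object they had 0.04 and -0.20 (unadjusted p 0.0177).

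Celf proteins bind GU-rich RNA and often oppose muscleblind proteins. At k = 4 the 6 Celf genes were below 0 in new-object/Control, with a median of -0.08, where 48.3% of all genes were above 0. They were above 0 in Familiar/new-object, with a median of 0.04, where 52.3% of all genes were above 0. The new-object group enters these comparisons on opposite sides, so the opposite signs are not independent. After upper quartile normalization alone Celf4 had 0.03 and Celf2 0.00 in new-object/Control, and Celf4 had -0.02 in Familiar/new-object, so these signs did not all hold. Against Control in Familiar 3 of 6 were above 0. Celf3, expressed mostly in the brain, had -0.25 in the new-object group (unadjusted p 0.00225) and -0.18 in Familiar (unadjusted p 0.0180) against Control. Celf6 had the smallest p of the family in Familiar/new-object, 0.0427, at 0.32. Values as near 0 as the -0.02 of Celf2 and Celf4 in new-object/Control had implied SEs of 0.068 and 0.069, so these signs carry little.

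Nova1 and Nova2, the neuronal antigens that bind YCAY clusters, and the Ptbp genes gave no p under 0.05. Nova1 had -0.17 (unadjusted p 0.178), -0.20 (unadjusted p 0.0985) and -0.02, and Nova2 -0.07, 0.09 and 0.13 (unadjusted p 0.159). Ptbp1, the repressor of neuronal exons outside neurons, had 0.06, -0.13 and -0.20 (unadjusted p 0.131). Ptbp2, its neuronal counterpart, had -0.04, -0.05 and -0.00. Ptbp3 had 0.13 (unadjusted p 0.551), 0.34 (unadjusted p 0.0638) and 0.23.

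**Figure D3:**
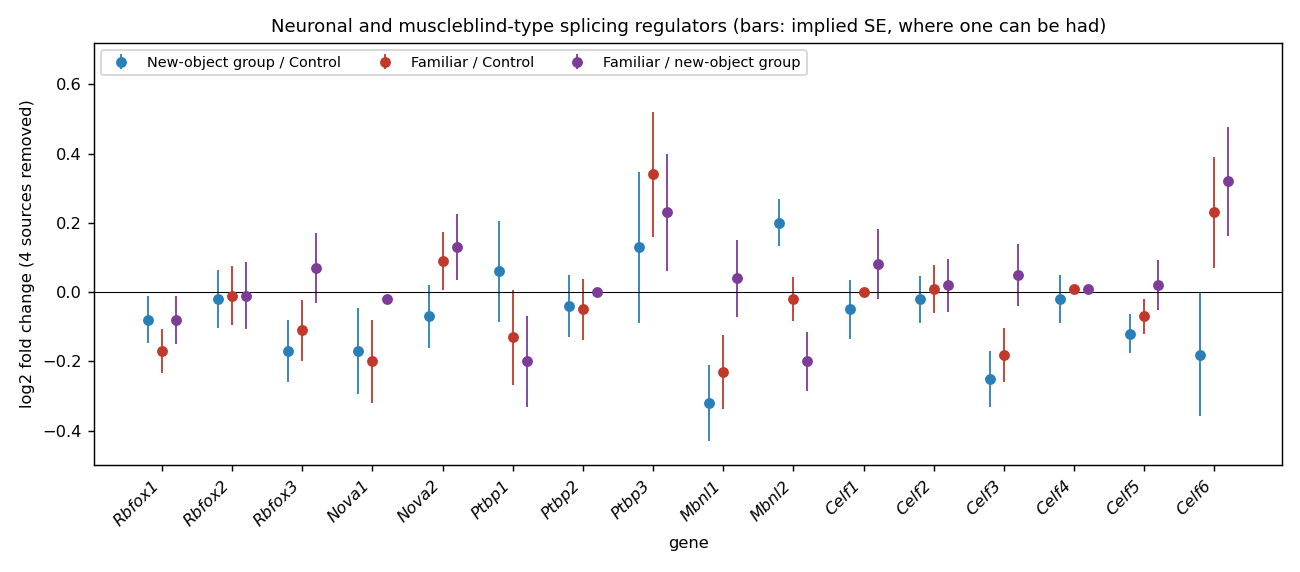
Log2 fold change at k = 4 of 16 splicing regulators of the Rbfox, Nova, Ptbp, Mbnl and Celf families, with 1 colour per pair of groups and bars for the implied SE where p was under 0.9. None is a DEG. Mbnl1 at -0.32 and Mbnl2 at 0.20 lie on opposite sides of 0 in new-object/Control, and the 6 Celf genes lie below 0 there.

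Over the 103 identifiers the values against Control were shifted little. The median log2 fold change was -0.04 in new-object/Control, -0.01 in Familiar/Control and 0.01 in Familiar/new-object, beside -0.01, 0.00 and 0.01 for all genes. In the same order 41, 43 and 54 of 103 were above 0. The interquartile range of the members ran from -0.13 to 0.10 in new-object/Control, and the SD over the members was 0.207 beside 0.309 over all genes.

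The share of members with an unadjusted p under 0.05 changed with the setting. In new-object/Control 20 members (19.4%) passed at k = 4, where 10.1% of all genes did. After upper quartile normalization alone 3 members (2.91%) passed and 3.40% of all genes. Of the 20, 9 were above 0 and 11 below. In Familiar/Control the share was 11.7% (12 members) beside 11.9% of all genes at k = 4, and 4.85% (5 members) beside 4.22% before RUVSeq. In Familiar/new-object it was 9.71% (10 members) beside 9.59%, and 1.94% (2 members) beside 2.87%. By the DEG rule after upper quartile normalization, 0, 1 and 1 members passed, the 1 being Sart1 in both comparisons with Familiar, beside 0.782%, 0.993% and 0.493% of all genes.

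Between these settings the fold changes of the members changed less than did their errors. Their SD at k = 4 was 89.4%, 94.5% and 92.1% of that after upper quartile normalization in the 3 comparisons, where for all genes it was 70.3%, 70.1% and 69.8%. The median ratio of a member's implied SE at k = 4 to that without RUVSeq was 0.632, 0.653 and 0.637. Of 103 members, 97, 99 and 93 had the same sign at both settings. What share of the added p values under 0.05 follows from the smaller errors was not tested.

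**Figure D4:**
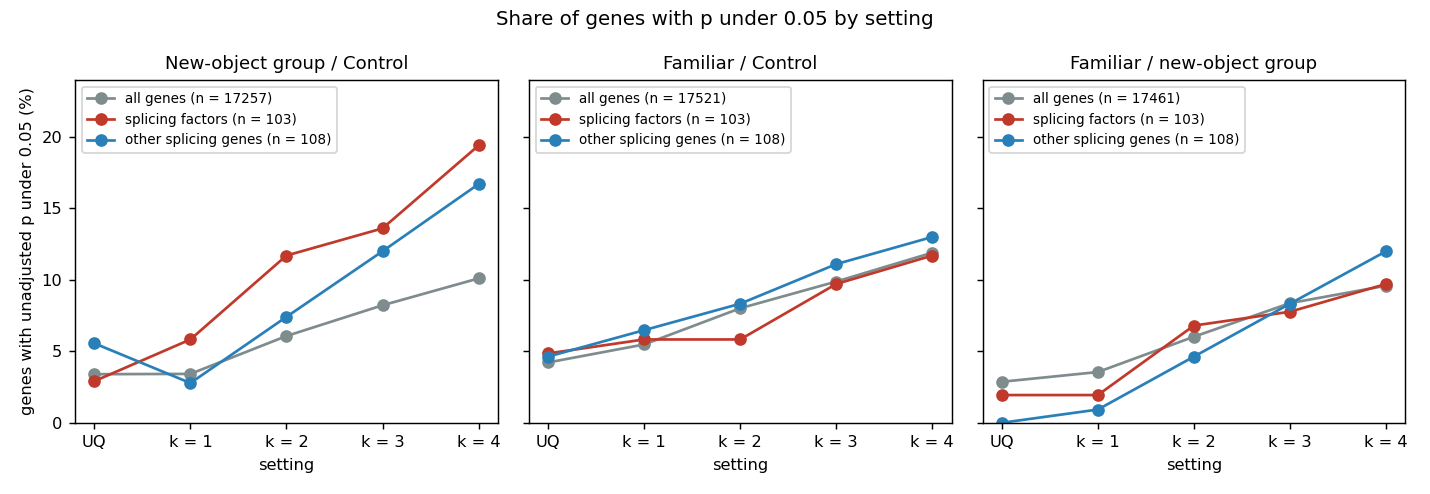
Percentage of genes whose unadjusted p was under 0.05, after upper quartile normalization alone (UQ) and with k = 1 to k = 4 sources removed, for all genes, the 103 splicing factors and 108 other splicing genes, with 1 panel per pair of groups. In new-object/Control the splicing factors reach 19.4% at k = 4, the other splicing genes 16.7% and all genes 10.1%. In the other panels the splicing factors and all genes end near each other, at 11.7% and 11.9% and at 9.71% and 9.59%.

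Other genes of the splicing pathway were read from a list of 111 symbols outside the name rule, of which 106, as 108 identifiers, were in each table. In new-object/Control 4 of the 108 were DEGs (3.70%, beside 2.66% of all genes), 2 higher and 2 lower. An unadjusted p under 0.05 was found for 18 of the 108 (16.7%) there, beside 19.4% of the splicing factors and 10.1% of all genes. Clk1, a kinase that phosphorylates Srsf proteins, was higher by 0.33, with an implied SE of 0.091 and an adjusted p of 0.0424 in the edgeR test. Snrnp48, a protein gene of the minor spliceosome, was higher by 0.68 (adjusted p = 0.0998). Isy1 and Bcas2, both of the complex around Prpf19, fell by 0.56 (adjusted p = 0.249) and by 0.51 (adjusted p = 0.105). Prpf19 itself had -0.23 in that comparison, as given above.

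In Familiar/Control 5 of the 108 were DEGs (4.63%, beside 3.72%), 3 higher and 2 lower. Bud31, a core protein gene of the activated spliceosome, was higher by 0.53 (adjusted p = 0.00933), and Elavl2, a neuronal binder of AU-rich RNA, fell by 0.35 (adjusted p = 0.0262). Isy1 fell here too, by 0.67 (adjusted p = 0.0602). Gemin6, of the complex that loads Sm rings, was higher by 0.92 with an implied SE of 0.348 (adjusted p = 0.182). Ncbp2, of the cap binding complex, has 2 identifiers. ENSRNOG00000048589 was higher by 0.52 (adjusted p = 0.194), and ENSRNOG00000001746 had -0.18 (adjusted p = 0.765). In Familiar/new-object 0 of the 108 were DEGs in the edgeR tests (2.50% of all genes), 13 (12.0%) had an unadjusted p under 0.05 (9.59% of all genes) and 0 had an adjusted p under 0.05 (0.407%).

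Markers of cell types were read in the same tables, since splicing factors differ between brain cells. Of 4 oligodendrocyte markers, 3 were lower DEGs in new-object/Control (median -0.37, from -0.56 to -0.27) and 2 in Familiar/Control (median -0.38, from -0.51 to 0.00). Between the trained groups 0 were DEGs, with a median of -0.01 and a range from -0.08 to 0.39, the highest being Mag (unadjusted p 0.0111). Of 5 markers of meningeal fibroblasts, 2 were higher DEGs in Familiar/Control (median 0.43, from -0.06 to 0.68) and 0 in the other comparisons, where Col1a2 had 0.36 in new-object/Control (unadjusted p 0.0158). The 4 neuron markers ran from -0.07 to -0.03 in new-object/Control, from -0.15 to 0.02 in Familiar/Control and from -0.10 to 0.06 between the trained groups, with 0 DEGs. In Familiar/Control, however, Syt1 had -0.14 with an adjusted p of 0.0201 in the edgeR test, and Snap25 -0.15 with an adjusted p of 0.0935. Astrocyte and microglia markers gave 0 DEGs, with medians between -0.12 and 0.15. Of the astrocyte markers, Slc1a3 had 0.16 in new-object/Control (unadjusted p 0.00484), and Aldh1l1 had 0.32 (unadjusted p 0.0169) and Gfap 0.13 (unadjusted p 0.0481) in Familiar/Control. Of the microglia markers, Csf1r had 0.23 in new-object/Control (unadjusted p 0.0110) and P2ry12 -0.43 in Familiar/Control (unadjusted p 0.0231). Of the endothelial markers Flt1 alone was in the table, at 0.31 (unadjusted p 4.69e-04, adjusted 0.0525), 0.21 (unadjusted p 0.0145, adjusted 0.238) and -0.10 (unadjusted p 0.260), and of the choroid plexus markers Kl alone, at -0.02, 0.01 and 0.13. The part of these shifts in the splicing factor values against Control was not tested, and without levels the tables cannot show whether a marker is at or near 0.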

How the data were processed

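Total RNA of 14 rats (5 in group Familiar, 5 in the new-object group, 4 in group Control) was sequenced on the Ion Proton. Per the methods and the submitters' processing notes, the authors pooled both chips of a sample, aligned reads to Rnor_6.0 with TopHat and then Bowtie2, counted reads that mapped uniquely to a gene with HTSeq, left out genes with low mean counts, adjusted counts with RUVSeq and compared pairs of groups with edgeR. The deposited fold change values are linear ratios that the authors took from edgeR. The p values deposited beside them are unadjusted. These are the authors' own comparisons, used because values per sample fill 0 columns of the 3 tables. The depth per sample behind a gene is therefore unknown, and no interval from counts is given. The p values set the difference between a pair of groups against the spread between their rats. At k = 4 that spread is what remained after 4 estimated sources were taken out, so it is not the full spread between rats. In the methods, the authors describe edgeR run on counts already adjusted by RUVSeq. In a legend they describe a general linear model holding the 4 sources. Which of these gave the deposited p values is not given in the sources used here.

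Here, ratios were converted to log2, p was adjusted by Benjamini-Hochberg over each whole table, and the implied SE was computed as the size of the log2 fold change divided by the normal quantile of the 2-sided p, for p under 0.9. A DEG had p under 0.01 and a rise of at least 25% or a fold change of at most 0.8. Also tried were values before RUVSeq, with k of 1, 2 and 3, a threshold of 0.05 on the adjusted p, and p under 0.01 with no fold. Members and lists were chosen with earlier results of these data known. Genes named by rule were Sart1, Sart3, Tra2a, Tra2b, every member that was a DEG, the gene of smallest p in each subfamily and comparison, the Rbfox, Nova and Mbnl genes with Ptbp1 and Ptbp2, and the DEGs of the other splicing genes. Others, such as Srsf2 in further comparisons, Hnrnpc, Hnrnpu, Hnrnpll, Prpf8, Prpf38a, Prpf39, Sf3b1 and the Sm ring genes, were chosen after their values were seen. Of the 103 identifiers, 0 matched RefSeq by identifier and 103 by symbol. Splicing events and genome positions in Rnor_6.0 were not analysed here. The scripts were tested on simulated data. They ran in Python 3.11.15 (numpy 2.4.6, with scipy at 1.17.1, pandas at 2.3.3, matplotlib at 3.10.9).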

Additional observations from a re-analysis of the deposited data

Results flagged for a closer look

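Sart1 stood out because the trained groups differed from each other in a direct test. Its log2 fold change was 0.42 for Familiar/Control and -0.03 for new-object/Control, and the test of Familiar/new-object gave 0.45 with an unadjusted p of 1.07e-07 in the authors' edgeR table (adjusted here, 4.67e-04). After upper quartile normalization alone the same test gave 0.48 with an unadjusted p of 0.00455. The adjusted p was not under 0.05 there, nor at k = 1 or k = 2. Sart1 was named in the rule with its earlier results known. Whether each rat of group Familiar shows the difference cannot be seen without values per rat.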

How the results depend on the processing

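No paired analysis was possible because the tables hold no values per sample, although rats of the trained groups shared cages in pairs, and leaving out each replicate could not be run for the same reason. How far single rats decide a value, and what depth limits, therefore cannot be given. The DEG counts depended on the setting. For the splicing factors in new-object/Control the 2 DEGs became 0 after upper quartile normalization alone, 0 at k = 1, 1 at k = 2, 3 at k = 3 (1 of them higher), 0 with an adjusted p under 0.05 and 8 (7.77%, beside 3.82% of all genes) with p under 0.01 and no fold. In Familiar/Control the 3 DEGs became 1 after upper quartile normalization and 7 (6.80%, beside 5.11% of all genes) with no fold. In Familiar/new-object the 4 became 1 after upper quartile normalization, 1 at k = 1, 2 at k = 2 and 1 with an adjusted p. Among all genes the share of DEGs changed with the setting too. In new-object/Control it was 0.782% after upper quartile normalization and 0.684%, 1.69%, 2.28% and 2.66% for k = 1 to k = 4. In the same order it was 0.993%, 1.60%, 2.65%, 3.17% and 3.72% in Familiar/Control. In Familiar/new-object it was 0.493%, 0.704%, 1.52%, 2.25% and 2.50%. For the other splicing genes, the 4 DEGs of new-object/Control became 0 after upper quartile normalization, 2 at k = 1, 2 at k = 2 and 1 with an adjusted p, and the 5 of Familiar/Control became 1, 2, 2 and 2. With p under 0.01 and no fold, an alternative added after seeing the data, they became 6 (5.56%) and 8 (7.41%). Of all genes, 3.82% and 5.11% passed in these comparisons. The 0 of Familiar/new-object became 1 (0.926%, beside 3.36% of all genes). The cause was not tested. The medians over the members moved by less than 0.05 under each of these settings. In the counts that follow, only results that were DEGs at k = 4 could lose the call. These were 2, 3 and 4 members and 4, 5 and 0 other splicing genes in the 3 comparisons. The remaining named results counted as kept if they stayed uncalled in the same direction, so the 291 does not show how well calls held. Of 332 values of 83 named results under other settings, 291 kept direction and side of the threshold. Another 36 kept direction and lost the call, and 5 changed sign. The 5 were Ptbp2 in Familiar/new-object (0.06 after upper quartile normalization, 0.00 at k = 1, 0.00 at k = 2 and 0.01 at k = 3) and Nova1 in the same comparison (0.02 after upper quartile normalization), and none had an unadjusted p under 0.05 at k = 4.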
